A study of Mus musculus with 54 samples.

Results

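Hearts of aged mice given the histone deacetylase inhibitor Cmpd60 were compared with hearts of mice given vehicle, in 11 of the 54 RNA libraries of the study. Members were all the libraries whose labels name heart as the tissue, namely 5 Cmpd60 libraries (numbered 68 to 72) and 6 vehicle libraries (62 to 67). All came from male BL6 mice of about 20 months, naturally aged and without a transgene, which were housed singly and fed chow. Both groups were injected intraperitoneally every day for 14 days, the first with 22.5 mg/kg Cmpd60 in a mixture of DMSO, PEG400 and saline, the second with that mixture alone. The labels do not name the part of the heart that was taken, or which libraries of different organs share a mouse. The study's methods give more mice per treatment than there are heart libraries. The labels do not say that each library is a separate mouse, so p-values measure the spread between these libraries. The study asked how this inhibitor acts on several aged organs, and the comparison here asks which heart transcripts stood at another level after 14 days of dosing.

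Cmpd60 is a benzamide that inhibits HDAC1 and HDAC2. These enzymes remove acetyl groups from lysines of histone tails and work as catalytic subunits of corepressor complexes such as NuRD, SIN3 and CoREST. In the heart, class I deacetylases have been studied mainly for their part in hypertrophic growth and fibrosis of the stressed muscle. Cardiomyocytes fill most of the heart's volume and burn mainly fatty acids, while fibroblasts, endothelial cells, mural cells and macrophages make up most of its cells.

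Between 23584609 and 43792168 reads per heart library were counted on genes, so that a count of 0 in the smallest allows a level of up to 0.127 CPM (a gene's share of the scaled counts of its library), a limit for counting error only. Markers of cardiomyocytes were abundant in every library, with a summed level of 69188 to 82489 CPM in the Cmpd60 libraries and 70932 to 82189 CPM in the vehicle libraries. Skeletal muscle markers summed to at most 9.16 CPM, with Myh4 at 0 in all 11. Libraries of both groups stood apart by transcripts of airway cells: Scgb1a1, the secretory protein of airway club cells, stood at 167 CPM in Cmpd60 68, 180.3 CPM in vehicle 62 and 12.0 CPM in vehicle 64, and at 0 in the other 8. The surfactant gene Sftpc was seen in Cmpd60 68 alone, at 3.75 CPM. The main counts are therefore given also without Cmpd60 68 and vehicle 62, which held Scgb1a1 above 100 CPM, a choice made after seeing the data. Below, the libraries with airway RNA means these 2 alone. Vehicle 64, with its lower level, stayed in those fits.

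Most heart genes that passed the test differed modestly between the groups. Of 19452 genes tested with edgeR's quasi-likelihood test, 229 (1.18%) passed an adjusted p of 0.05, of which 147 (0.756%) were raised and 82 (0.422%) were lowered. The median change among these was 1.41-fold for the raised and 1.41-fold for the lowered genes, and 148 of the 229 moved by less than 1.5-fold. The Cmpd60 and vehicle libraries did not overlap for 523 (2.69%) of all genes tested and for 179 of the 229. Non-overlap was a condition for naming genes below by size of change or by p, so it adds no support for those genes. An unadjusted p below 0.05 was reached by 2626 of the 19452 genes. This number and the shares called above are the background for all counts of list members below. With DESeq2 the number called was 746, with 442 raised and 304 lowered.

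**Figure D1:**
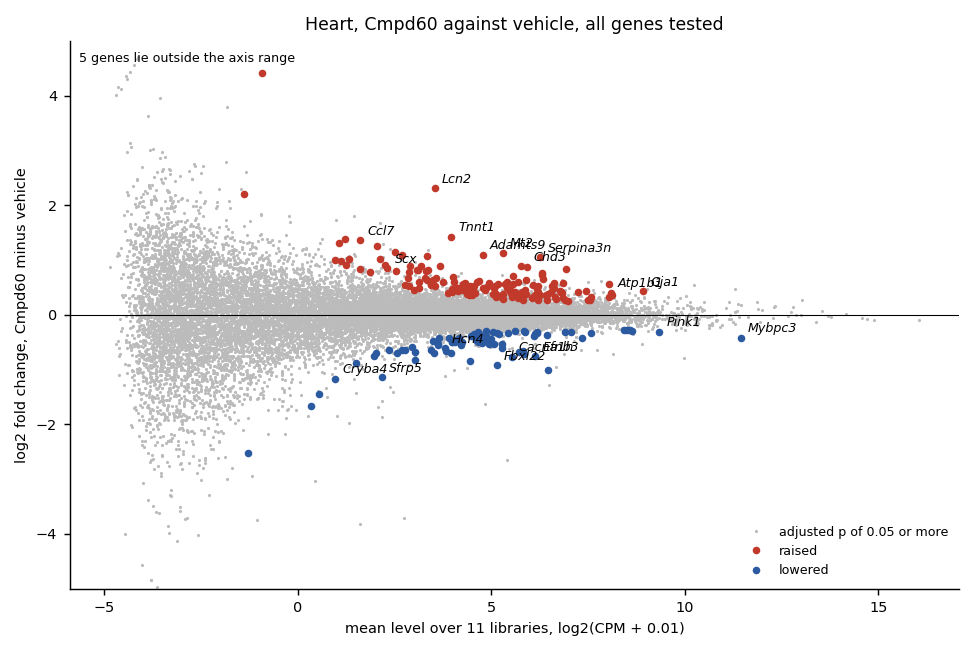
Mean level of each of the 19452 genes over the 11 heart libraries, as log2(CPM + 0.01), against its log2 fold change, Cmpd60 minus vehicle. Red points are the 147 raised and blue points the 82 lowered genes at an adjusted p below 0.05, and grey points are all others. Most called genes lie within 1 log2 unit of 0, and Lcn2 at 2.31 and Cryba4 at -1.17 are the largest rise and the largest fall among the called genes named in the text.

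All 229 genes had the same sign when any of the 11 libraries was left out, which their selection on these same libraries makes likely. The number called depended on the libraries. The number called fell to 36 without Cmpd60 72 and to 73 without Cmpd60 69, and to 80, 80, 125 and 81 without vehicle 63, 64, 65 and 67. Without both libraries that held airway RNA it was 159, with 101 raised and 58 lowered, and 120 of the 229 were still called. Of the 229, 31 were called in each of the 11 fits that left out a library, and for the main genes below the number of these fits that called them is given as their stability. These fits reuse the libraries on which the genes were chosen, so a high number is no independent support.

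The lowest p among raised genes belonged to Mt2, which encodes a metallothionein, a small protein that binds zinc and copper and buffers metal and oxidative stress. Mt2 stood at 47.8, 67.8, 56.4, 59.0 and 48.3 CPM in Cmpd60 68 to 72, in that order as in all such series below, and at 20.8 to 31.7 CPM (median 25.6) in the vehicle libraries. It was 2.19-fold higher with Cmpd60 (log2 fold change 1.13 ± 0.12 SE, adjusted p = 0.000368), the groups did not overlap, and it was called in 11 of the 11 leave-one-out fits. Its neighbour Mt1 stood at 106, 135, 119.6, 133 and 103 CPM against 54.3 to 91.3 CPM (median 84.6). Mt1 was 1.498-fold higher (log2 fold change 0.58 ± 0.11 SE, adjusted p = 0.0232), again without overlap, and was called in 10 of the 11 such fits. Mt1 and Mt2 sit on the lists of glucocorticoid-responsive genes, of cardiac stress genes and of genes known to rise with HDAC inhibition in cultured cells, so these lists are not separate evidence.

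Metallothionein genes are the classical targets of the metal-response factor MTF1, and their promoters are shown here because these neighbouring genes moved together. Capitals mark matches to TGCACNC or TGCGCNC, the core of the metal response element, on either strand, in RefSeq sequences of GRCm38.p6 that run from 250 bases before to 50 bases after the gene start, at chr8:94172368-94172667 (plus strand) for Mt2 and chr8:94178839-94179138 (plus strand) for Mt1.
Mt2: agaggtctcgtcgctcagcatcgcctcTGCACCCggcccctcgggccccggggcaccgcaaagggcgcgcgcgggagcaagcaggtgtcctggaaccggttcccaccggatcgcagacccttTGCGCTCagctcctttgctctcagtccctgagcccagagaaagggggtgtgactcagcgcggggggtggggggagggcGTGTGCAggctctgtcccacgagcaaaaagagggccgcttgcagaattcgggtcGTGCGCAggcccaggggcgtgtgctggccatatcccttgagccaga
Mt1: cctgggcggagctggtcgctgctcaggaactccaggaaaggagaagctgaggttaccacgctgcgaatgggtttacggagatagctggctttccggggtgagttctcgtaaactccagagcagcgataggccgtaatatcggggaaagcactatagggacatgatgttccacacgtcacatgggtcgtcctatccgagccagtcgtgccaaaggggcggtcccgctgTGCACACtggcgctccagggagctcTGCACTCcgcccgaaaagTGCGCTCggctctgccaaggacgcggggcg
The window of Mt2 held 4 matches and that of Mt1 held 3. Of the 12336 genes tested that have such a promoter sequence, 3.22% held 3 or more, and 35.2% held at least 1. Among the 106 raised genes with such a sequence the shares were 3.77% and 34.0%. A match is a string of letters and not a measured binding site.

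The transcripts of the enzymes that Cmpd60 inhibits did not pass the test. Hdac1 ranged over 18.3 to 22.6 CPM with Cmpd60 and 17.0 to 25.3 CPM with vehicle, and Hdac2 over 41.9 to 49.6 and 42.8 to 52.1 CPM, with log2 fold changes of 0.05 ± 0.10 (adjusted p = 0.895) and -0.08 ± 0.07 (adjusted p = 0.713). Since Cmpd60 acts on the enzymes, these levels do not test the labels. Of 40 tested members of the HDAC1 and HDAC2 complexes, 7 had an unadjusted p below 0.05, against 2626 of all 19452 genes. At an adjusted p below 0.05, 1 was raised and none was lowered, against 0.756% and 0.422% of all genes. The raised member was Chd3, the remodelling ATPase of the NuRD complex, at 90.3, 72.9, 61.7, 78.4 and 97.4 CPM against 39.6 to 52.1 CPM (median 41.5) with vehicle. Chd3 was 1.83-fold higher (log2 fold change 0.88 ± 0.11 SE, adjusted p = 0.00204) without overlap, and was called in 11 of the 11 leave-one-out fits. Of 33 other lysine deacetylases and acetyltransferases none passed with edgeR or DESeq2, and 5 had an unadjusted p below 0.05, with Hdac3 at -0.06 ± 0.06 on the log2 scale.

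**Figure D2:**
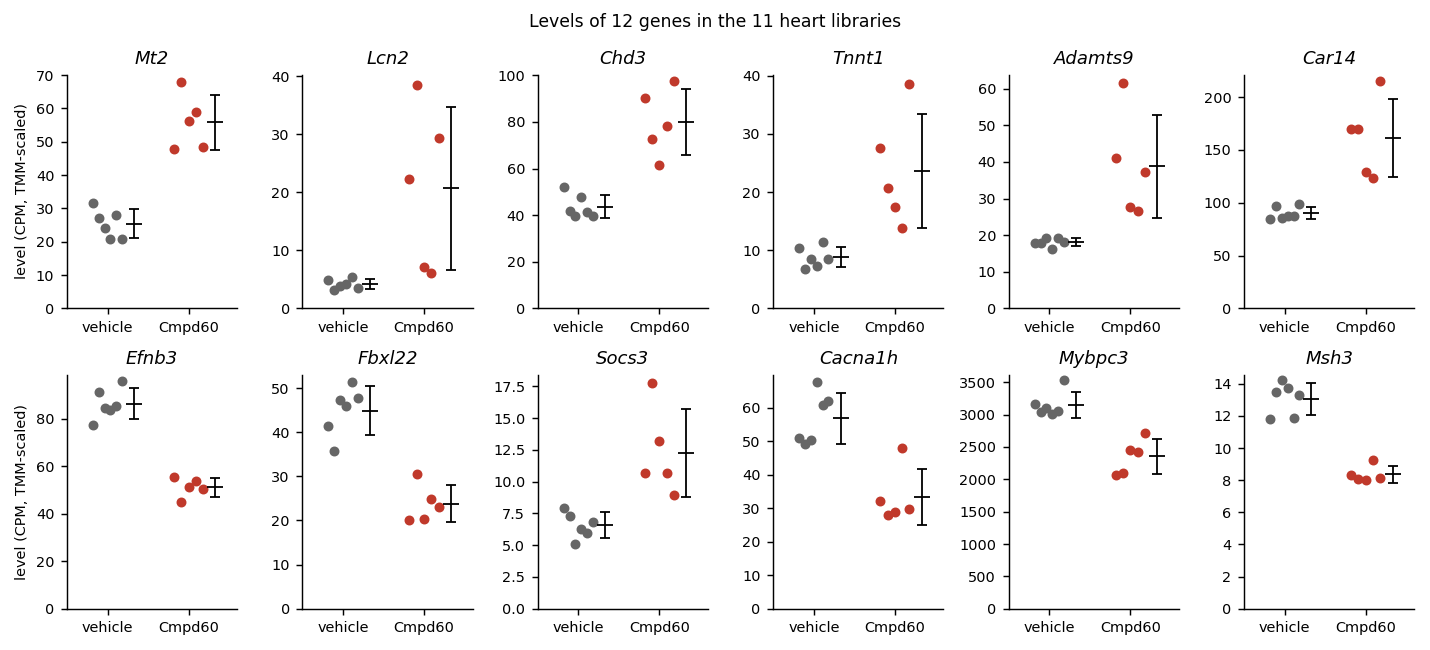
Levels of 12 genes in CPM (TMM-scaled, each axis from 0) in the 6 vehicle libraries (grey) and 5 Cmpd60 libraries (red), with the mean and standard deviation of each group in black. The groups do not overlap in any of the 12 panels, which was a condition for naming most of these genes. Lcn2 spreads from 6.05 to 38.5 CPM within the Cmpd60 group.

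The lowest p of all genes was that of Efnb3, which encodes ephrin B3, a membrane ligand of Eph receptors in contact signalling between cells. Efnb3 stood at 55.6, 44.8, 51.0, 53.6 and 50.4 CPM with Cmpd60 and at 77.2 to 95.8 CPM (median 84.9) with vehicle. Every Cmpd60 library lay below every vehicle library, and Efnb3 was 1.69-fold lower (log2 fold change -0.76 ± 0.07 SE, adjusted p = 0.000226). Fbxl22, an F-box protein of the cardiac Z-disc that directs ubiquitination, stood at 20.2, 30.6, 20.4, 24.8 and 23.1 CPM against 35.7 to 51.4 CPM (median 46.6). It was 1.89-fold lower (log2 fold change -0.92 ± 0.11 SE, adjusted p = 0.00204) without overlap. Msh3, a mismatch repair protein, was tightly grouped at 8.30, 8.06, 8.03, 9.28 and 8.13 CPM against 11.8 to 14.2 CPM (median 13.4), which made it 1.56-fold lower (log2 fold change -0.65 ± 0.09 SE, adjusted p = 0.00484). Other lowered genes of small p were the phospholipid flippase Atp8a2 (-0.66 ± 0.10, adjusted p = 0.00794) and Tarbp2, a partner of Dicer in small RNA processing (-0.50 ± 0.08, adjusted p = 0.0108). All 5 were called in every leave-one-out fit.

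Among raised genes of small p, Car14, a membrane-bound carbonic anhydrase, stood at 169, 169.9, 129, 123 and 215 CPM against 84.6 to 99.1 CPM (median 87.8) with vehicle. It was 1.79-fold higher (log2 fold change 0.84 ± 0.11 SE, adjusted p = 0.00484), with Cmpd60 72 the highest library. Tmem38b, a cation channel of the endoplasmic reticulum that supports calcium release, was at 60.1, 78.7, 62.3, 56.7 and 60.4 CPM against 36.9 to 46.4 CPM (median 42.1) and thus 1.52-fold higher (log2 fold change 0.60 ± 0.08 SE, adjusted p = 0.00592). Hjv, a coreceptor for bone morphogenetic proteins (BMP) that controls iron balance, was at 331, 352, 304, 249 and 350.0 CPM against 203 to 238 CPM (median 213), or 1.47-fold higher (log2 fold change 0.55 ± 0.08 SE, adjusted p = 0.00794). Non-overlap between the groups was a condition for naming these genes, and all were called in every leave-one-out fit.

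Lcn2, lipocalin 2, which binds iron-carrying siderophores and is released in inflammation and injury, stood at 22.3, 38.5, 7.17, 6.05 and 29.3 CPM against 3.23 to 5.40 CPM (median 4.02) with vehicle. Its mean rise was 4.95-fold (log2 fold change 2.31 ± 0.38 SE, adjusted p = 0.0122), and it was called in 11 of the 11 leave-one-out fits with a highest adjusted p of 0.0467. Without the libraries with airway RNA it was 2.33 on the log2 scale (adjusted p = 0.025). The 5 Cmpd60 libraries were themselves far apart, with 70 and 71 just above the vehicle range and 68, 69 and 72 well above it. Cmpd60 70 and 71 were also the libraries nearest to vehicle for Car14, Adamts9, Hsd17b11 and Hsph1, picked after their values were seen. They were not so for Mt2, Chd3 or Socs3. Serpina3n, an acute-phase protease inhibitor, stood at 83.8, 173, 73.4, 82.8 and 123 CPM against 40.8 to 69.2 CPM (median 50.3) and was 2.06-fold higher (log2 fold change 1.05 ± 0.19 SE, adjusted p = 0.0161). Socs3, a feedback inhibitor of cytokine signalling through STAT3, stood at 10.7, 17.8, 13.2, 10.6 and 8.93 CPM against 5.07 to 7.96 CPM (median 6.56). It was 1.86-fold higher (log2 fold change 0.90 ± 0.16 SE, adjusted p = 0.0161) without overlap and was called in 11 of the 11 fits.

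The promoter of Socs3 is shown as that of the cytokine feedback gene that passed here, with the STAT motif TTCNNNGAA in capitals, searched on both strands (chr11:117969317-117969616 (minus strand), GRCm38.p6, RefSeq).
Socs3: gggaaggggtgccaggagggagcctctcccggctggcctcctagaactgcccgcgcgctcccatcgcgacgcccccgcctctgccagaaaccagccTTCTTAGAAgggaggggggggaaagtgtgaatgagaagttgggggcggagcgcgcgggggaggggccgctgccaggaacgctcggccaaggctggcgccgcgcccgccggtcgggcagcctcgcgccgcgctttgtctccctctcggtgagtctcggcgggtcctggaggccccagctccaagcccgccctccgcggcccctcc
It held 1 match. At least 1 match was held by 6.78% of all promoters of genes tested and by 7.55% of those of raised genes. Here too a match is no measured binding site, and a part of STAT factors in the rise was not tested.

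Of 60 chemokines, cytokines and receptors tested, 5 were raised and 1 was lowered, against 1.18% of all genes called, and the median log2 fold change was 0.12 against -0.001 over all genes. The number called was 9 without both libraries with airway RNA, and ranged from 1 (without Cmpd60 72 or vehicle 64) to 8 with each library left out. Il33, an alarmin released by damaged barrier and stromal cells, was at 11.9, 22.4, 14.5, 13.8 and 22.5 CPM against 7.20 to 11.02 CPM (median 8.98) and rose 1.86-fold (log2 fold change 0.89 ± 0.17 SE, adjusted p = 0.0205; stability 8 of the 11). The monocyte chemokines Ccl7 and Ccl9 rose by 1.36 ± 0.29 (adjusted p = 0.0388) and 0.60 ± 0.13 (adjusted p = 0.0329) on the log2 scale, and the TNF receptor Tnfrsf1a by 0.44 ± 0.08 (adjusted p = 0.0223). Ccl7 was low in absolute terms, 3.39 to 6.94 CPM against 0.796 to 3.50 CPM, and overlapped between the groups. Ccl7, Ccl9 and Tnfrsf1a were called in 4, 5 and 7 of the 11 leave-one-out fits. Cxcr4, the receptor of the chemokine Cxcl12, was at 2.81, 3.09, 3.33, 3.35 and 2.40 CPM against 4.30 to 5.67 CPM (median 4.88) and fell by 0.70 on the log2 scale (SE 0.14, adjusted p = 0.028; 5 of the 11). Ccl2 did not pass (0.84 ± 0.25, adjusted p = 0.113), and of 48 interferon-stimulated and MHC class I genes none passed with edgeR and 1 with DESeq2, 5 having an unadjusted p below 0.05, with Isg15 at 0.77 ± 0.19 (adjusted p = 0.0674).

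Of 28 glucocorticoid-responsive genes, 4 were raised and none lowered, against 0.756% of all genes raised, and the median of the list was 0.07. An unadjusted p below 0.05 was reached by 10 of the 28, against 2626 of all 19452 genes. The number called was also 4 without the libraries with airway RNA, and ranged from 2 (without Cmpd60 69) to 5 with each library left out. Beside Lcn2, Mt2 and Mt1, it was Hsd11b1, the enzyme that regenerates active glucocorticoid in cells, at 32.7, 40.7, 26.9, 24.8 and 32.8 CPM against 16.6 to 24.8 CPM (median 20.0). Hsd11b1 was 1.53-fold higher (log2 fold change 0.61 ± 0.12 SE, adjusted p = 0.0259; stability 5 of the 11). Members that did not pass included Fkbp5, Per1 and Tsc22d3, with log2 fold changes of 0.06, -0.11 and 0.13 and adjusted p from 0.752 to 0.904. These members were picked after their values were seen, and glucocorticoid action was not tested.

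Ion channels changed in opposite directions. Of 46 channel, pump and gap junction genes tested, 3 were raised and 3 were lowered, against 0.756% and 0.422% of all genes, with a median of 0.04, and 1 and 2 respectively without the libraries with airway RNA. The number called ranged from 0 (without Cmpd60 72) to 7 with each library left out. Cacna1h, a T-type calcium channel, was at 32.2, 27.99, 28.9, 47.96 and 29.7 CPM against 49.3 to 67.7 CPM (median 55.8), and was 1.71-fold lower (log2 fold change -0.77 ± 0.13 SE, adjusted p = 0.015; stability 10 of the 11). Scn4a, the sodium channel of skeletal muscle, was at 42.1, 32.5, 59.0, 43.3 and 35.9 CPM against 60.7 to 79.0 CPM (median 70.6), or 1.64-fold lower (log2 fold change -0.72 ± 0.12 SE, adjusted p = 0.015; 10 of the 11). For both, all Cmpd60 libraries lay below all vehicle libraries, by a small margin in Cmpd60 71 for Cacna1h and in Cmpd60 70 for Scn4a. Hcn4, the pacemaker channel of the sinus node, was 1.53-fold lower (log2 fold change -0.61 ± 0.12 SE, adjusted p = 0.0245; 8 of the 11), with ranges of 9.89 to 12.8 and 12.8 to 21.6 CPM that overlapped.

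The raised members were Atp1b1, a subunit of the sodium pump, Gja1, which encodes connexin 43 of ventricular gap junctions, and Hcn2, the pacemaker channel isoform of working ventricle. Atp1b1 was at 302, 350.3, 269, 323 and 326 CPM against 217 to 254 CPM (median 240.2) (log2 fold change 0.40 ± 0.07 SE, adjusted p = 0.015), and Gja1 at 612, 697, 516, 482 and 509 CPM against 390.1 to 453 CPM (median 419) (log2 fold change 0.43 ± 0.08 SE, adjusted p = 0.0245). Neither overlapped between the groups, and they were called in 10 and 8 of the 11 leave-one-out fits. Hcn2 rose by 0.43 ± 0.09 (adjusted p = 0.039) and was called in 2 of them. Kcnh2, a repolarising potassium channel, did not pass (-0.22 ± 0.08, adjusted p = 0.215).

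Of 35 calcium cycling genes, 1 passed, against 1.18% of all genes. It was Calm2, which encodes calmodulin, at 135, 152, 106, 109 and 138 CPM against 89.1 to 105 CPM (median 93.4) (log2 fold change 0.43 ± 0.09 SE, adjusted p = 0.028; stability 6 of the 11). None of the list passed without the libraries with airway RNA, when Calm2 had an adjusted p of 0.0665. The release channel Ryr2 (0.07 ± 0.08, adjusted p = 0.774) and phospholamban, Pln (0.16 ± 0.07, adjusted p = 0.27), did not. Among 29 genes of beta-adrenergic signalling none passed with edgeR, against 4 with DESeq2, and 7 had an unadjusted p below 0.05, with Adrb1 at -0.24 ± 0.10 and Adcy5 at -0.16 ± 0.07.

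Of 53 genes of the thick and thin filaments and the Z-disc, 3 were lowered and 1 was raised, against 0.422% and 0.756% of all genes, with a median of -0.02. Without the libraries with airway RNA 1 was lowered and 1 raised, and the number called ranged from 1 (without Cmpd60 68, 69 or 72 or vehicle 63, 64, 65, 66 or 67) to 5 with each library left out. Mybpc3, cardiac myosin-binding protein C, was at 2074, 2103, 2458, 2428 and 2713 CPM against 3011 to 3542 CPM (median 3076). It was 1.34-fold lower (log2 fold change -0.42 ± 0.07 SE, adjusted p = 0.0157), the groups did not overlap, and it was called in 11 of the 11 leave-one-out fits. The Z-disc protein nebulette, Nebl (-0.27 ± 0.06, adjusted p = 0.0434), and the kelch protein Klhl41 (-0.37 ± 0.09, adjusted p = 0.0479) fell, while its paralogue Klhl40 rose (0.45 ± 0.10, adjusted p = 0.0425), each with calls in at most 2 of the 11 leave-one-out fits. The main cardiac myosin Myh6 did not pass (-0.09 ± 0.07, adjusted p = 0.588).

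Tnnt1, the troponin T of slow skeletal muscle and no member of that list, had the largest rise after Lcn2 among the genes named here. It stood at 27.6, 20.7, 17.4, 13.8 and 38.6 CPM against 6.77 to 11.4 CPM (median 8.51), or 2.69-fold higher (log2 fold change 1.43 ± 0.21 SE, adjusted p = 0.00794; stability 11 of the 11), without overlap. Of 10 other skeletal muscle markers tested, 9 lay above 0 (median 0.56 on the log2 scale) and none at an unadjusted p below 0.05. Tnnt3 ranged over 0.419 to 1.45 CPM with Cmpd60 and 0.263 to 1.47 CPM with vehicle, and the summed list over 4.69 to 9.16 CPM in the Cmpd60 libraries and 5.06 to 7.71 CPM in the vehicle libraries. Their part in the rise of Tnnt1 was not tested.

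Of 23 cardiac stress genes, 2 were raised, Mt1 and Mt2, against 0.756% of all genes raised. The list had a median of 0.24, with 19 of its members above 0, against 49.6% of all genes, and 9 at an unadjusted p below 0.05. The number called was 3 without the libraries with airway RNA and ranged from 1 (without Cmpd60 69) to 4 with each library left out. The natriuretic peptide genes Nppa and Nppb, the usual readouts of wall stress, had log2 fold changes of -0.04 ± 0.27 (adjusted p = 0.972) and 0.09 ± 0.21 (adjusted p = 0.909), whose signs turned with single libraries left out. Myh7, the slow myosin re-expressed in stressed ventricle, was at 1196, 865, 2837, 907 and 1432 CPM against 674 to 1366 CPM (median 933) and did not pass (adjusted p = 0.379), Cmpd60 70 alone lying far above the rest.

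Genes of mitochondrial metabolism that passed were mostly lower with Cmpd60. Of 42 genes of coenzyme Q synthesis and mitochondrial quality control, 33 lay below 0, against 9795 of all 19452 genes, with a median of -0.08. Lowered were 3, against 0.422% of all genes lowered. They were Pink1, the kinase that starts mitophagy (-0.31 ± 0.07, adjusted p = 0.0441), Coq7, a hydroxylase of coenzyme Q synthesis (-0.30 ± 0.06, adjusted p = 0.0366), and Endog, a mitochondrial nuclease (-0.43 ± 0.08, adjusted p = 0.0245). Pink1 stood at 633, 570.4, 616, 568 and 486 CPM against 648 to 769 CPM (median 714). They were called in 3, 4 and 7 of the 11 leave-one-out fits. None of the 3 overlapped between groups, and 3 of the list were lowered without the libraries with airway RNA, with a range from 0 (without Cmpd60 72 or vehicle 64 or 67) to 3 when each library was left out.

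Of 25 citric acid cycle genes, 21 lay below 0, against 9795 of all 19452 genes, with a median of -0.11. An unadjusted p below 0.05 was reached by 12 of them, against 2626 of all genes, and 1 was lowered, against 0.422% of all genes. Fh1, fumarate hydratase, was the called member, at 353, 363, 364, 354 and 336 CPM against 399.9 to 482 CPM (median 430.0) (log2 fold change -0.30 ± 0.06 SE, adjusted p = 0.0245; stability 6 of the 11). Sdha did not pass (-0.20 ± 0.06, adjusted p = 0.136), nor did Ogdh (-0.18 ± 0.07, adjusted p = 0.222). By contrast, 45 of 82 nuclear subunits of the respiratory chain and ATP synthase lay below 0, with a median of -0.006. None of these passed with edgeR, against 3 with DESeq2. Among the 82, 9 had an unadjusted p below 0.05 (2626 of all 19452 genes), including Ndufs1 at -0.14 ± 0.06 and Atp5a1 at -0.13 ± 0.06. None of 12 genes of the mitochondrial genome passed with either tool or reached an unadjusted p below 0.05.

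In the list of 58 fatty acid oxidation genes and PPAR targets, 1 was raised and 1 was lowered, against 0.756% and 0.422% of all genes. The lowered member is not reported here. Raised was the long-chain acyl-CoA synthetase Acsl6, at 37.0, 33.0, 31.3, 29.4 and 36.8 CPM against 20.9 to 25.7 CPM (median 25.1) (log2 fold change 0.46 ± 0.08 SE, adjusted p = 0.0157; stability 10 of the 11), without overlap. The list had a median of -0.08 and 22 members at an unadjusted p below 0.05, and its number called ranged from 0 (without Cmpd60 72) to 6 with each library left out. Ppara itself did not pass (0.23 ± 0.06, adjusted p = 0.105), nor did its target Pdk4, at 395, 312, 1446, 1112 and 345 CPM against 791 to 2068 CPM (median 1153) (adjusted p = 0.35).

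Of 39 genes of coenzyme A and acyl-CoA metabolism, 2 were lowered, against 0.422% of all genes. They were the medium-chain acyl-CoA synthetase Acsm5 (-0.46 ± 0.10, adjusted p = 0.0329) and Pank4, of the pantothenate kinase family (-0.33 ± 0.08, adjusted p = 0.0465). Of 54 genes of glucose and pyruvate metabolism, 2 were lowered, against the same 0.422%. They were Pdk2, a kinase that restrains pyruvate dehydrogenase (-0.28 ± 0.06, adjusted p = 0.0425), and the aldose reductase Akr1b3 (-0.32 ± 0.07, adjusted p = 0.028). These 4 did not overlap between groups and were called in 1 to 5 of the 11 leave-one-out fits. Hsd17b11, a dehydrogenase of lipid droplets that no list holds, was at 33.8, 30.4, 48.6, 50.1 and 34.7 CPM against 53.5 to 72.7 CPM (median 64.1) and 1.599-fold lower (log2 fold change -0.68 ± 0.13 SE, adjusted p = 0.019; 10 of the 11).

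**Figure D3:**
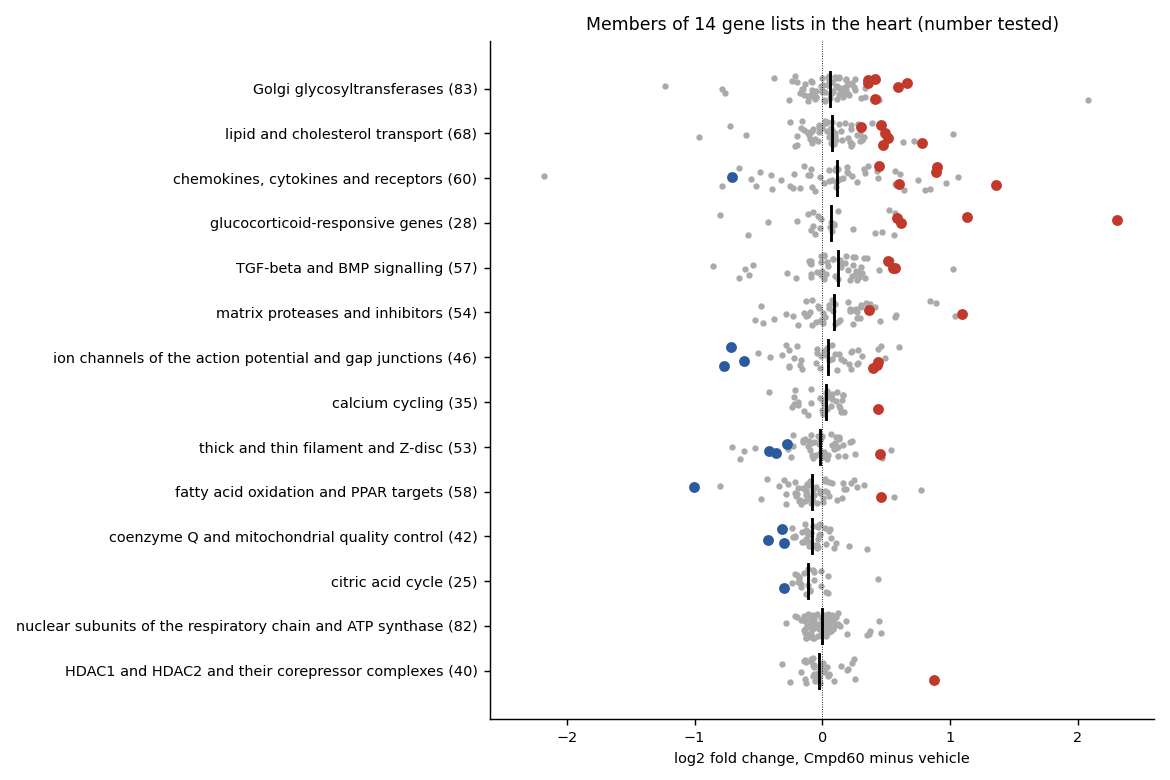
Log2 fold change, Cmpd60 minus vehicle, of the tested members of 14 gene lists (number tested in brackets). Red and blue points are members raised and lowered at an adjusted p below 0.05, grey points are other members, the black bar is the list's median, and 2 grey members lie outside the axis. Called members of the glycosyltransferase and lipid transport lists lie above 0, and those of the citric acid cycle and coenzyme Q lists below 0.

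Genes of lipid transport and of glycan synthesis that passed were raised. Of 68 genes of lipid and cholesterol transport, 6 were raised and none was lowered, against 0.756% of all genes raised, with a median of 0.07. The number was 4 without the libraries with airway RNA and ranged from 1 (without Cmpd60 72) to 6 with each library left out. Atp9a, an endosomal member of the phospholipid flippase family, was at 107, 125, 107, 100.4 and 131 CPM against 71.6 to 86.9 CPM (median 80.2) (log2 fold change 0.51 ± 0.08 SE, adjusted p = 0.00794; stability 11 of the 11). Abcg1, which exports cholesterol, was at 9.98, 12.2, 6.14, 9.24 and 9.88 CPM against 5.07 to 6.13 CPM (median 5.45) (log2 fold change 0.78 ± 0.14 SE, adjusted p = 0.0171; 9 of the 11), its lowest Cmpd60 library reaching the highest vehicle library. The others were the triglyceride transfer protein Mttp (0.49 ± 0.09), the oxysterol-binding family member Osbpl9 (0.30 ± 0.06), the lipid transporter Abca7 (0.48 ± 0.11) and the prostaglandin transporter Slco2a1 (0.46 ± 0.11), with adjusted p from 0.0169 to 0.0484. They were called in 10, 9, 3 and 1 of the 11 leave-one-out fits.

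Of 83 Golgi glycosyltransferases, 6 were raised and none was lowered, against 0.756% of all genes raised, with a median of 0.06. The number was 5 without the libraries with airway RNA and ranged from 2 (without Cmpd60 69 or 72 or vehicle 63, 64, 65 or 67) to 7 with each library left out. St3gal5, which makes the ganglioside GM3, was at 81.4, 85.9, 82.8, 89.5 and 90.4 CPM against 59.0 to 69.5 CPM (median 64.5) (log2 fold change 0.41 ± 0.06 SE, adjusted p = 0.00794; stability 11 of the 11). Gcnt2, which branches poly-lactosamine chains, was at 17.2, 22.6, 17.8, 22.4 and 19.9 CPM against 12.3 to 14.2 CPM (median 13.3) (log2 fold change 0.59 ± 0.09 SE, adjusted p = 0.00794; 11 of the 11). Neither overlapped between the groups. The sialyltransferase St3gal2 (0.36 ± 0.07), the N-glycan enzymes Mgat4a (0.36 ± 0.08) and Mgat3 (0.66 ± 0.15) and the galactosyltransferase B4galt1 (0.41 ± 0.09) had adjusted p from 0.0321 to 0.0468 and were called in 2 or 3 of the 11 leave-one-out fits.

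Beyond the valve development genes that the study lists, few matrix genes passed. Of the 7 listed by the study, which were chosen on these samples and are no independent evidence, 5 were raised. Adamts9, Emilin1 and Smad6, which the study names among them, count again in the lists that follow. Of 54 matrix proteases and inhibitors, 2 were raised, against 0.756% of all genes. They were Adamts9, which cleaves versican, at 41.0, 61.6, 27.6, 26.5 and 37.2 CPM against 16.2 to 19.3 CPM (median 18.1) (log2 fold change 1.09 ± 0.17 SE, adjusted p = 0.00794; stability 11 of the 11), and cathepsin L, Ctsl (0.36 ± 0.07, adjusted p = 0.0252). Timp1 (0.84 ± 0.21, adjusted p = 0.0658) and Mmp2 (0.36 ± 0.09, adjusted p = 0.0726) did not pass. Among 28 fibrillar collagen and cross-linking genes 1 was called (3.57%, against 1.18% of all genes). It was the lysyl hydroxylase Plod1, raised (0.38 ± 0.08, adjusted p = 0.0401, stability 2 of the 11), while Col1a1 (0.29 ± 0.11, adjusted p = 0.257) and Col3a1 (0.06 ± 0.10, adjusted p = 0.873) did not pass. Of 41 other collagens and basement membrane genes, 1 was called (2.44%, against 1.18% of all genes). It was Col6a6, a chain of the microfibrillar collagen VI family, lowered, at 9.07, 6.58, 11.2, 8.99 and 7.06 CPM against 12.0 to 16.4 CPM (median 13.7). Its log2 fold change was -0.71 ± 0.13 SE (adjusted p = 0.0171, stability 10 of the 11).

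Of 23 elastic fibre genes, 2 were raised, against 0.756% of all genes. They were Emilin1 (0.60 ± 0.12, adjusted p = 0.0259) and the endothelial Mmrn2 (0.30 ± 0.07, adjusted p = 0.0472). Of 51 matricellular proteins and proteoglycans, 3.92% were called, against 1.18% of all genes. Mgp, an inhibitor of calcification, was raised (0.41 ± 0.09, adjusted p = 0.0479), and Ecm2 was lowered (-0.53 ± 0.12, adjusted p = 0.0395). These 4 were called in 3 to 5 of the 11 leave-one-out fits.

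Of 57 genes of TGF-beta and BMP signalling, 3 were raised and none was lowered, against 0.756% of all genes raised, 38 lay above 0, against 49.6% of all genes, and the median was 0.13. The number was also 3 without the libraries with airway RNA and ranged from 1 (without Cmpd60 69 or 72 or vehicle 63 or 67) to 4 with each library left out. Beside Hjv they were Smad6, an inhibitory SMAD, at 25.2, 33.1, 22.6, 26.3 and 24.3 CPM against 15.3 to 21.5 CPM (median 18.4) (log2 fold change 0.52 ± 0.11 SE, adjusted p = 0.039; stability 4 of the 11), and Id1, a direct BMP target, at 36.3, 46.6, 28.6, 34.2 and 40.3 CPM against 19.6 to 30.9 CPM (median 24.0) (log2 fold change 0.57 ± 0.13 SE, adjusted p = 0.0479; 3 of the 11). Smad6, which is also on the study's valve development list, did not overlap between groups, and Id1 did. Tgfb1 (0.35 ± 0.08, adjusted p = 0.0501) and the inhibitory Smad7 (0.54 ± 0.13, adjusted p = 0.0544) narrowly missed the threshold. Of 60 Notch and Wnt genes, 1 was called (1.67%), near the 1.18% of all genes called. It was the secreted Wnt antagonist Sfrp5, lowered, at 4.88, 2.77, 2.75, 1.57 and 1.59 CPM against 3.69 to 7.34 CPM (median 6.22). Its log2 fold change was -1.14 ± 0.27 SE (adjusted p = 0.0479, stability 2 of the 11), with overlapping groups. Among 43 cardiac transcription factors 1 was called (2.33%, against 1.18% of all genes). It was Scx, the tendon factor that the study lists too, which was raised (0.85 ± 0.19, adjusted p = 0.0426, stability 2 of the 11). None of the 43 passed without the libraries with airway RNA (adjusted p = 0.0827 for Scx).

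Vasoactive genes included 2 rises among 34 tested, against 0.756% of all genes raised. Ramp1, a subunit of the receptor for the vasodilator CGRP, was at 9.41, 6.10, 7.89, 6.09 and 8.46 CPM against 3.55 to 4.82 CPM (median 4.60) (log2 fold change 0.79 ± 0.14 SE, adjusted p = 0.0157; stability 10 of the 11). Agt, which encodes angiotensinogen, was at 12.7, 13.3, 10.1, 11.1 and 20.8 CPM against 5.93 to 9.44 CPM (median 7.82) (log2 fold change 0.82 ± 0.18 SE, adjusted p = 0.0401; 4 of the 11). Neither overlapped between groups. Of 33 HIF-1 targets, 1 was raised, against the same 0.756%. It was Egln3, an oxygen-sensing prolyl hydroxylase (log2 fold change 0.77 ± 0.18 SE, adjusted p = 0.0446), with Cmpd60 69 at 171 CPM and the other Cmpd60 libraries at 79.1 to 95.7 CPM. Vegfa did not pass (0.26 ± 0.07, adjusted p = 0.0984). Egln3 was called in 3 of the 11 leave-one-out fits, and no HIF-1 target passed without the libraries with airway RNA.

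Of 47 antioxidant and NRF2 target genes, 27 lay below 0, against 9795 of all 19452 genes, with a median of -0.03. None was lowered and 2 were raised, against 0.756% of all genes raised. They were glutathione peroxidase 1, Gpx1 (0.55 ± 0.13, adjusted p = 0.0455), and the quinone reductase Nqo1 (0.48 ± 0.11, adjusted p = 0.0483). Both overlapped between the groups, and they were called in 2 and 1 of the 11 leave-one-out fits. Without the libraries with airway RNA neither was called and 1 member was lowered. With DESeq2, 3 members were raised and 3 were lowered. Of 41 immediate early and heat shock genes, 4.88% were called, against 1.18% of all genes. Ier3 was raised (0.49 ± 0.12, adjusted p = 0.0484) and the chaperone Hsph1 was lowered (-0.66 ± 0.15, adjusted p = 0.0437). Each was called in 2 of the 11 leave-one-out fits, and neither passed without the libraries with airway RNA. Of 24 genes known to rise with HDAC inhibition in cultured cells, Mt1 and Mt2 were raised, against 0.756% of all genes raised. The cell-cycle inhibitor Cdkn1a, the usual readout, was at 31.2, 66.5, 47.7, 53.3 and 51.7 CPM against 22.05 to 53.9 CPM (median 37.4) and did not pass (log2 fold change 0.41 ± 0.20 SE, adjusted p = 0.393). None passed with edgeR among 24 cell-cycle inhibitor and senescence genes (1 with DESeq2, 3 with an unadjusted p below 0.05), 32 proliferation genes (1 and 4), 54 insulin and growth factor genes (5 and 17) and 35 genes of the integrated stress and unfolded protein responses (3 and 7). Of 48 lysosome and autophagy genes Ctsl was the called member (2.08%, against 1.18% of all genes called), and none passed without the libraries with airway RNA.

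Further genes named for the size of their change were low in these hearts. Raised ones were the adhesion molecule Sdk2 (3.92 to 9.80 against 2.34 to 3.86 CPM), the organic anion exporter Abcc3 (1.86 to 3.69 against 1.01 to 1.71 CPM), the carbonic anhydrase-related Car11 (5.47 to 7.34 against 1.78 to 4.70 CPM) and Wdr76 (2.58 to 4.16 against 1.14 to 2.33 CPM), with log2 fold changes from 0.90 to 1.01 and adjusted p from 0.039 to 0.0484. Lowered ones were the crystallin Cryba4 (0.762 to 2.00 against 2.07 to 2.96 CPM, log2 fold change -1.17 ± 0.25), Fancl, a ubiquitin ligase of the Fanconi repair pathway (2.13 to 3.49 against 3.50 to 6.17 CPM, -0.75 ± 0.17), and the ciliary protein Cfap410 (4.496 to 7.45 against 8.60 to 10.7 CPM, -0.69 ± 0.13), with adjusted p from 0.0232 to 0.0441. Non-overlap between the groups was a condition for naming these 7, and all were called in 1 to 6 of the 11 leave-one-out fits.

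Markers of several cell types differed in part between the groups, and in bulk RNA fewer or more cells of a type cannot be told from less or more RNA per cell. All 12 macrophage markers lay above 0, with a median of 0.31 and 9 at an unadjusted p below 0.05. Their summed level ranged over 587 to 748 CPM in the Cmpd60 libraries and 421 to 619 CPM in the vehicle libraries, which overlapped. One member passed, F13a1, the coagulation factor XIII subunit of resident macrophages, at 94.4, 117, 78.6, 87.3 and 125 CPM against 53.6 to 74.0 CPM (median 63.4) (log2 fold change 0.66 ± 0.11 SE, adjusted p = 0.015; stability 10 of the 11), while the defining Csf1r and Adgre1 had log2 fold changes of 0.11 and 0.12 (adjusted p = 0.716 and 0.82). The part of macrophage RNA in the rise of Ccl7, Ccl9 and other immune genes was not tested. Of 15 endothelial markers 14 lay above 0, with a median of 0.16 and a sum of 1753 to 2318 CPM in the Cmpd60 libraries and 1650.2 to 1854 CPM in the vehicle libraries. None passed with edgeR, and 6 had an unadjusted p below 0.05. Lyve1, a marker of lymphatic endothelium that resident macrophages share, was raised (log2 fold change 0.56 ± 0.12 SE, adjusted p = 0.0329).

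Lymphocyte markers lay lower, all 12 of them, with a median of -1.47. Their sum was 6.50 to 37.6 CPM in the Cmpd60 libraries and 17.1 to 184 CPM in the vehicle libraries, the highest being vehicle 62, where Ighm alone reached 148.6 CPM. None of the 12 passed, 6 had an unadjusted p below 0.05, and Cd3e was at 0.0802 to 0.14 CPM against 0.248 to 0.677 CPM (adjusted p = 0.0755), without overlap. Their part in the lower level of Cxcr4, which lymphocytes carry, was not tested. All 10 atrial markers lay below 0, with a median of -0.34, and sums overlapped at 2375 to 6698 CPM in the Cmpd60 libraries and 3204 to 7666 CPM in the vehicle libraries. Myl7 was at 122 to 315 CPM against 249.5 to 463 CPM (adjusted p = 0.0967). The part of the share of atrial tissue in the levels of Hcn4 and other channel genes was not tested. Adipocyte markers summed to 9128 to 11397 CPM in the Cmpd60 libraries and 7415 to 9315 CPM in the vehicle libraries, mostly Lpl, which cardiomyocytes also express, while 8 of the 11 lay below 0. Fibroblast sums were 2815 to 3021 CPM in the Cmpd60 libraries and 2764 to 3338 CPM in the vehicle libraries, and those of smooth muscle and pericytes were 1645 to 2141 CPM in the Cmpd60 libraries and 1829.7 to 2054 CPM in the vehicle libraries.

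**Figure D4:**
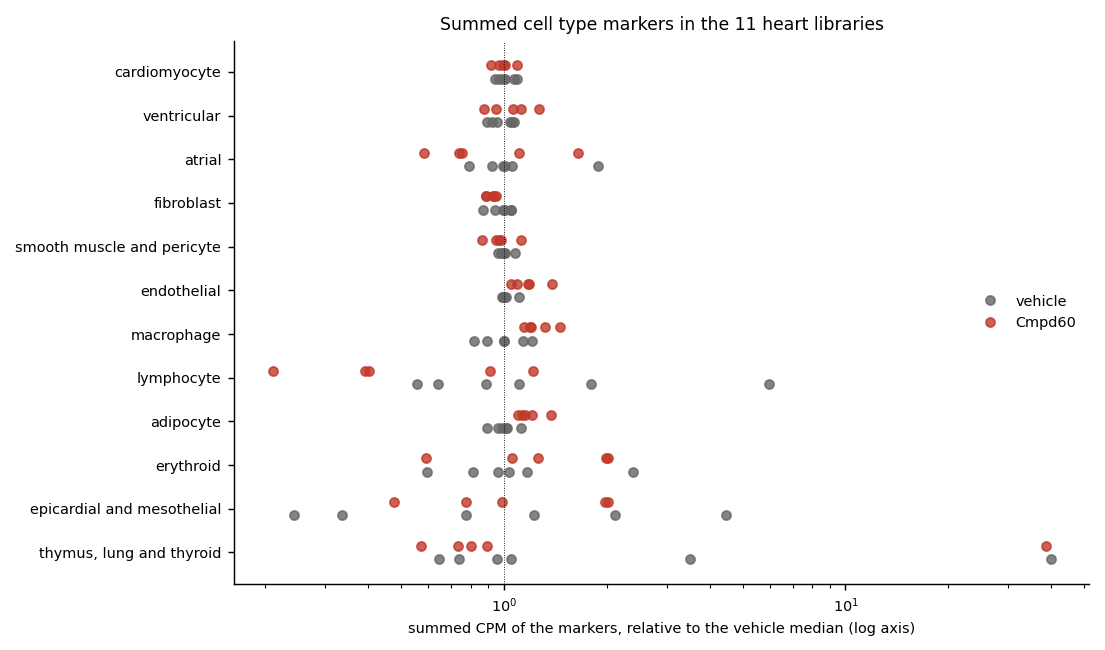
Summed CPM of the markers of 12 cell or tissue types in each heart library, divided by the median of the vehicle libraries (log axis), with vehicle in grey and Cmpd60 in red. The groups overlap for every type, macrophage and endothelial sums lean higher and lymphocyte sums lean lower with Cmpd60, and Cmpd60 68 and vehicle 62 stand far out in the row of thymus, lung and thyroid markers.

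The heart response was set beside those of brain and kidney of 20-month mice in a fit of all 34 libraries, with 27105 genes tested. The response differed between heart and brain for 14 genes (0.0517%) and between heart and kidney for 95 (0.35%), and 10 and 19 of these were among the 229 heart genes. The number for the brain fell to 1 without heart Cmpd60 72, and when only the tissues compared were fitted the numbers were 120 for the brain and 14 for the kidney. Without heart Cmpd60 68 and vehicle 62 they were 19 and 85. Chd3 responded more in the heart than in the brain, with log2 fold changes of 0.89 ± 0.12 in the heart and -0.00 ± 0.11 in the brain (difference 0.89, adjusted p = 0.0181). Tnnt1 rose in the heart and lay lower in the brain, at 1.44 ± 0.28 in the heart and -0.87 ± 0.27 in the brain (difference 2.30, adjusted p = 0.0181). The responses of Atp9a, Abcg1 and Slco2a1 of the lipid transport list also differed, by 0.53 (adjusted p = 0.0181), 0.76 (adjusted p = 0.0237) and 0.82 (adjusted p = 0.0429). Atp9a was at 0.53 ± 0.07 in the heart and -0.01 ± 0.07 in the brain, and Abcg1 at 0.79 ± 0.11 and 0.04 ± 0.09. Slco2a1 was at 0.47 ± 0.12 in the heart and -0.35 ± 0.12 in the brain, so its difference rests on both organs.

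Each comparison with the kidney rests on which label of its libraries is right. The groups used here are those of the titles, with which the source names agree, while the treatment field of the same libraries gives the opposite. With the kidney groups exchanged, a setting chosen after seeing the data, 767 genes (2.83%) differed between heart and kidney in place of 95, and 20 differed under both readings, 2 of them among the 229 heart genes. Chd3 was one of these, at -0.23 ± 0.12 in the kidney by the titles (difference 1.12, adjusted p = 0.000614) and with a difference of 0.65 (adjusted p = 0.0243) after the exchange. By the titles, differences also passed for Il33 (1.07, adjusted p = 0.0353), Ramp1 (1.30, adjusted p = 0.0445), Gpx1 (0.68, adjusted p = 0.0277), Mgat3 (0.85, adjusted p = 0.0353), Osbpl9 (0.50, adjusted p = 0.0151) and Hsph1 (-0.82, adjusted p = 0.0175). None of these 6 passed after the exchange, with differences of 0.74 (adjusted p = 0.083) for Il33, 0.32 (adjusted p = 0.694) for Ramp1, 0.45 (adjusted p = 0.0893) for Gpx1, 0.51 (adjusted p = 0.148) for Mgat3, 0.13 (adjusted p = 0.555) for Osbpl9 and -0.46 (adjusted p = 0.135) for Hsph1.

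For Mt2 and Lcn2 the readings gave opposite pictures. By the titles, Mt2 stood at 1.15 ± 0.26 in the heart and 1.18 ± 0.26 in the kidney and Lcn2 at 2.32 ± 0.53 in the heart and 2.21 ± 0.51 in the kidney, and neither difference passed (-0.02 ± 0.36 and 0.11 ± 0.71), which does not show that they are equal. After the exchange the kidney values were -1.18 for Mt2 and -2.21 for Lcn2, and both differences passed, at 2.33 (adjusted p = 0.000318) and 4.53 (adjusted p = 0.000444).

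**Figure D5:**
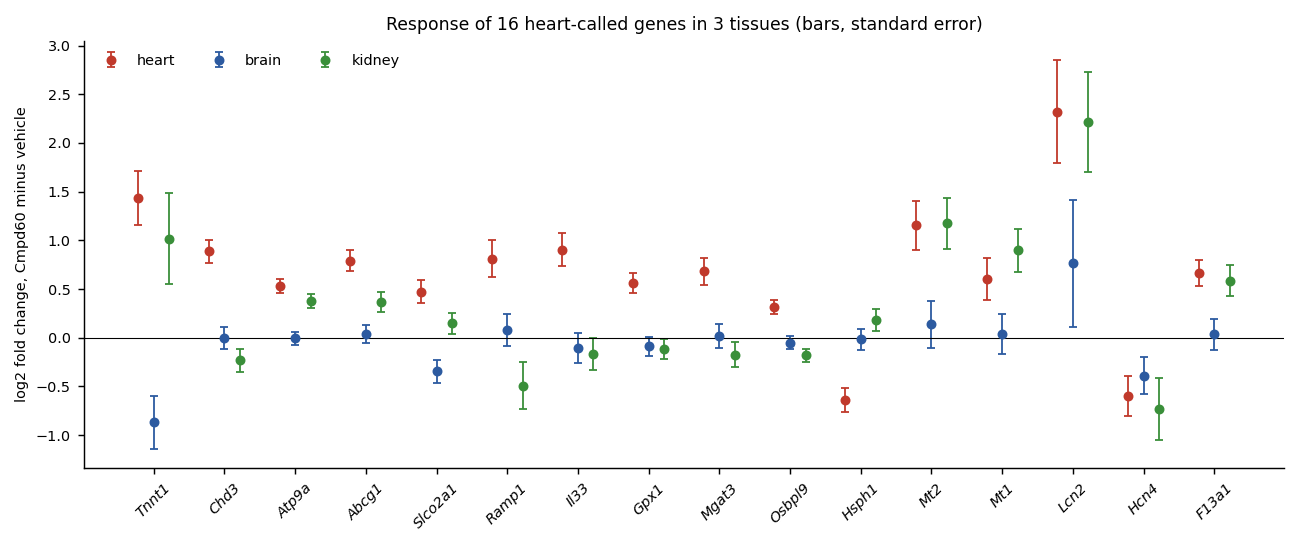
Log2 fold change, Cmpd60 minus vehicle, of 16 genes called in the heart, in heart (red), brain (blue) and kidney (green) of 20-month mice, from the fit of 34 libraries, with bars of 1 standard error and kidney groups taken from the titles. Chd3 stands at 0.89 in the heart and near or below 0 in the other organs, and Mt2 and Lcn2 stand above 1 in heart and kidney. With the kidney groups exchanged, as their treatment field has them, every green point changes sign.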

How the data were processed

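Raw read counts per gene were deposited by the authors, 1 table per library, made from directional, oligo-dT selected libraries with Trimmomatic 0.32, HISAT2 2.1.0 and HTSeq 0.11.0 according to the submitters' processing notes. Per the study's methods, counting took the direction of reads into account. The genome build is not given in the sources used here. The 5 summary lines of each table, 19.7 to 22.1% of heart reads, were left out, and 10.8 to 12.2% of reads were not unique to a place in the genome and were not counted. Symbols were assigned to 32651 of 54232 identifiers.

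The 11 heart libraries were fitted in edgeR 4.0.16 (R 4.3.3) with TMM scaling, a low-count filter that kept genes seen above 2 counts in 3 or more libraries, and the quasi-likelihood test, two-sided, with Benjamini-Hochberg adjustment over all genes tested. Levels are TMM-scaled CPM. Heart was compared with brain and kidney by interaction terms in 34 libraries. Kidney groups follow the titles and source names, and their treatment field, which gives the opposite, was tried as an added alternative. The statistics were tested on simulated data. DESeq2 1.42.0, limma 3.58.1 (voom), other scalings and filters, thinning and leaving out libraries were alternatives. No pair of libraries agreed within sampling noise.

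Named were, per direction, the 12 called genes of largest change and the 6 of smallest p, both among non-overlapping genes of at least 1 CPM. Also named were up to 6 called members of each list with up to 2 well-known uncalled ones, Hdac1, Hdac2 and defining markers. Some genes that the rule names are not reported here. Genes outside this rule are said to be chosen after their values were seen. Members and lists were chosen with earlier results of these data known.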

Additional observations from a re-analysis of the deposited data

Results flagged for a closer look

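Single libraries lay far from the rest of their group, by the gap to the nearest library over the range of the group, in 16 of 220 sets of 1 gene in 1 group, while chance gives about 1 in 20. Among Cmpd60 libraries, Cmpd60 69 was the highest for Tmem38b (78.7 CPM), B4galt1 (169.8 CPM), Egln3 (171 CPM) and Ier3 (53.1 CPM), and the lowest for Ecm2 (14.6 CPM). Cmpd60 71 was the highest for Cacna1h (47.96 CPM) and Msh3 (9.28 CPM), and Cmpd60 70 for Cryba4 (2.00 CPM) and Myh7 (2837 CPM).

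Among vehicle libraries, vehicle 64 was the highest for Tarbp2 (24.4 CPM) and the lowest for Acsl6 (20.9 CPM), vehicle 65 was the highest for Ccl7 (3.50 CPM), and vehicle 66 for Tnfrsf1a (55.8 CPM) and Nppa (5059 CPM). Vehicle 67 was the highest for Mybpc3 (3542 CPM) and the lowest for Mt1 (54.3 CPM).

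The log2 response to Cmpd60 differed between heart and brain, by the interaction test, for Tnnt1 (heart minus brain 2.30), Chd3 (0.89), Slco2a1 (0.82), Abcg1 (0.76) and Atp9a (0.53). It differed between heart and kidney for Ramp1 (heart minus kidney 1.30), Chd3 (1.12), Il33 (1.07), Mgat3 (0.85), Gpx1 (0.68), Osbpl9 (0.50) and Hsph1 (-0.82), with kidney groups taken from the titles. Of these, Chd3 alone also passed with the kidney groups exchanged.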

How the results depend on the processing

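The 229 heart calls became 746 with DESeq2 and 36 to 247 when each library was left out, and 213 to 312 under the other planned settings. Without Cmpd60 68 and vehicle 62, chosen after seeing the data, 159 were called. The 14 genes that differed between heart and brain became 176 with DESeq2, 120 when only these tissues were fitted, and 1 to 36 with each heart library left out: 7, 25, 36 and 1 without Cmpd60 69, 70, 71 and 72, and 31 without vehicle 66. The 95 that differed between heart and kidney became 515 with DESeq2, 60 with limma-voom, 14 when only these tissues were fitted, and 61 to 102 with each heart library left out, with 61 and 63 without Cmpd60 69 and 72. With the kidney groups exchanged, as their treatment field has them (chosen after seeing the data), 767 differed. The cause was not tested. For the 82 named genes that were called, none of 1804 values under 22 alternatives changed sign, which their selection on these libraries makes likely. Of these values, 491 no longer passed, most of them with a library left out. Among named genes that did not pass, the log2 fold change turned for Nppa (0.0727 with voom quality weights, 0.0201 without Cmpd60 68 and vehicle 62, and -0.32 to 0.23 with each library left out), Nppb (-0.0414 to 0.25) and Col3a1 (-0.000898 to 0.12). Depth limits genes under the floor of 3 counts. No paired analysis was possible because the groups share no replicate numbers.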

Other observations

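Further called genes of the heart, chosen after their values were seen, were also raised among secreted and immune genes. The ficolin Fcna, a lectin of resident macrophages, was at 6.64 to 9.76 CPM against 2.16 to 6.77 CPM with vehicle (log2 fold change 1.15 ± 0.22, adjusted p = 0.0245), with overlapping groups. Fgl2, a fibrinogen-like protein of macrophages and endothelium (0.72 ± 0.14, adjusted p = 0.0232), Lgals3bp, a secreted galectin ligand (0.70 ± 0.16, adjusted p = 0.0425), and the acute-phase protein Lrg1 (0.89 ± 0.21, adjusted p = 0.0484) rose, each with overlapping groups, and were called in 6 (Fcna), 8 (Fgl2), 3 (Lgals3bp) and 2 (Lrg1) of the 11 leave-one-out fits. Macrophage markers lay higher beside them, and their part was not tested.

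Hfe, which regulates iron uptake, was at 57.4 to 65.9 CPM against 45.7 to 49.3 CPM with vehicle (0.37 ± 0.06, adjusted p = 0.0122), and the fatty acid desaturase family member Fads6 at 11.7 to 12.97 CPM against 6.39 to 9.58 CPM with vehicle (0.67 ± 0.11, adjusted p = 0.0108). Both were called in every leave-one-out fit and did not overlap. Among lowered genes were Sgca, a sarcoglycan of the muscle membrane (-0.39 ± 0.07, adjusted p = 0.0171), the mitochondrial protease Oma1 (-0.31 ± 0.07, adjusted p = 0.0441) and the mitochondrial peptidase Mipep (-0.31 ± 0.07, adjusted p = 0.0446), none of which overlapped between the groups.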
